A study of Mus musculus with 32 samples.

Results

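The genes described here encode the secreted and membrane-bound metalloproteinases of the extracellular matrix and their tissue inhibitors. All genes whose names in the count table began with Mmp and a digit or with Adamts, or were Timp1 to Timp4, were taken, which gave 50 of 24952 genes. They comprised 23 matrix metalloproteinases (MMPs), 18 ADAMTS proteases, 5 ADAMTS-like (ADAMTSL) proteins and all 4 TIMPs. RNA came from synaptic (NMJ) and extra-synaptic (xNMJ) areas of the tibialis anterior muscle, a fast hindlimb muscle, of male wild type C57BL/6JRj mice. The areas were cut by laser from sections stained with α-bungarotoxin, a toxin that binds the acetylcholine receptor, and many areas were pooled for each library. The mice were kept in single cages on AIN93M diet, for 2 to 3 months in the 10-month groups and for 16 months in the 30-month groups. Each region gave 8 libraries at 10 months and 8 at 30 months (10m xNMJ, 10m NMJ and so on), with total counts of 4026648 to 16516788 per library. The labels do not say that each library came from a separate animal, so the p values measure the spread between these libraries only.

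The synaptic label held in the markers. All 7 genes of synaptic myonuclei tested (Ache, Chrna1, Chrnd, Chrne, Colq, Etv5 and Musk) were higher in NMJ at both ages. Chrne, the adult subunit of the acetylcholine receptor, had a median of 264 normalized CPM (counts scaled to the TMM-adjusted library total) in 10m NMJ and 258 in 30m NMJ, and of 0 in both xNMJ groups. One library stood apart from its label: replicate 5 of 30m xNMJ held 99.5 normalized CPM of Chrne, while the next highest of that group held 0.254. This library also held 171 normalized CPM of Chrna1 and 109 of the macrophage gene Lyz2, where the next highest of its group held 40.1 and 20.1. Named results found to rest on it are given below with and without it, though not every member called only without it is named. In 10m NMJ, replicate 8 had the smallest average insert size in the labels (52).

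Proteases of these families cut collagens, proteoglycans and other proteins of the matrix, and most are made as inactive precursors that other enzymes activate. TIMPs bind the active site of MMPs and of some ADAMTS proteases, while ADAMTSL proteins share the ancillary domains of ADAMTS proteins and lack the protease domain. In skeletal muscle the proteins they act on include the basal lamina around each fibre, which at the NMJ carries agrin and synaptic laminins and anchors the nerve terminal to the fibre. In libraries of pooled tissue areas, more cells of a type and more RNA per cell cannot be told apart.

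Of the 50 members, 33 reached at least 1 CPM in at least 8 libraries and were tested, and 17 were too low to judge. The tested members were 12 of 23 MMPs, 13 of 18 ADAMTS genes, 4 of 5 ADAMTSL genes and all 4 TIMPs. The members under this filter were Mmp1a, Mmp1b, Mmp3, Mmp7, Mmp10, Mmp13, Mmp20, Mmp21, Mmp25, Mmp27, Mmp28, Adamts3, Adamts14, Adamts16, Adamts17, Adamts19 and Adamtsl3. Among them were Mmp3 (stromelysin-1), which is known to cleave agrin, and Mmp13 (collagenase-3). Mmp3 exceeded the floor of 3 counts in 0 xNMJ and 1 NMJ library at 10 months and in 1 xNMJ and 2 NMJ libraries at 30 months, and its highest value was 4.14 normalized CPM in replicate 1 of 30m xNMJ. Mmp13 and Mmp7 (matrilysin) did not exceed the floor in any of the 32 libraries, and the floor corresponded to between 0.162 and 0.988 normalized CPM. The floor was 0.281 to 0.988 in xNMJ libraries and 0.162 to 0.361 in the deeper NMJ libraries. A gene at the same level could thus exceed it more easily in NMJ, which limits comparisons of the number of libraries above the floor. Of these 17 genes, 6 exceeded the floor in 0 libraries, 10 in 1 to 8 libraries and Mmp25 in 20 of 32, with medians of 0.617 normalized CPM in 10m NMJ and 0.723 in 30m NMJ. Hence a member counted as tested had to be present in part of the libraries, and counts over tested members do not describe all members.

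Most of the MMPs that were too low lie side by side on chromosome 9. On GRCm38 this cluster spans chr9:7272514-7699585 and holds 10 members, of which Mmp12 and Mmp8 were tested. Genes of this cluster are known as targets of the transcription factor AP-1, which joins Fos and Jun proteins. In the RefSeq promoters (GRCm38.p6, from 250 bases before to 50 bases after the start), the AP-1 motif TGANTCA, searched on both strands, was present in 8 of the 10 genes. It was present in 0 of the other 26 members with a RefSeq promoter and in 7.81% of all 32851 RefSeq promoters. The stretches around the motif (in capitals) are printed because these 8 promoters, 7 of them of genes too low to judge, share it at 28 to 88 bases before a RefSeq start. Mmp12 and Mmp7 have a second RefSeq promoter each, without the motif, and the start used for Mmp12 lies inside the gene as GENCODE M21 annotates it (chr9:7344381-7369499).
Mmp13: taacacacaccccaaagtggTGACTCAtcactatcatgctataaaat
Mmp12: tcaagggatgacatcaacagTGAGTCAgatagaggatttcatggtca
Mmp1b: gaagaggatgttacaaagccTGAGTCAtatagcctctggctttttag
Mmp3: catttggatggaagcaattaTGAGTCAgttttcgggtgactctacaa
Mmp1a: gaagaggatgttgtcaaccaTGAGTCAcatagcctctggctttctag
Mmp10: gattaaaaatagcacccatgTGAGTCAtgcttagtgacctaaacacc
Mmp20: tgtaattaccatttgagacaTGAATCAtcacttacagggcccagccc
Mmp7: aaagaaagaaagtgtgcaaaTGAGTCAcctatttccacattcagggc
The stretches lie at chr9:7272459-7272505 (Mmp13), chr9:7347310-7347356 (Mmp12), chr9:7445756-7445802 (Mmp3), chr9:7464048-7464094 (Mmp1a), chr9:7502259-7502305 (Mmp10), chr9:7628116-7628162 (Mmp20) and chr9:7692007-7692053 (Mmp7) on the plus strand and at chr9:7388093-7388139 (Mmp1b) on the minus strand. Mmp8 and Mmp27 do not hold these letters in their windows. Mmp12 and Mmp1b overlap on opposite strands and share 157 exon bases, and Mmp1a is annotated as a polymorphic pseudogene in GENCODE M21. Reads were counted without regard to strand, so reads from the shared stretch cannot be assigned to either gene.

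Levels of different genes were compared on the TPM scale, which is corrected for length. By the mean over the 4 groups the most abundant members were Timp2 (25.4 TPM), Timp3 (19.7 TPM), Adamts1 (14.8 TPM), Mmp2 (11.9 TPM) and Adamtsl5 (10.9 TPM). Next came Timp4 (8.14 TPM), Adamtsl4 (6.05 TPM), Mmp14 (5.17 TPM), Adamtsl2 (3.80 TPM) and Mmp12 (3.32 TPM). Of the 10 most abundant members, 3 were inhibitors, 3 were ADAMTSL genes and 4 were proteases. The group means differed in order: in 10m NMJ, Timp2 (38.2 ± 12.9 TPM, SD, n = 8) was followed by Mmp2 (27.8 ± 13.7 TPM) and Adamts1 (26.1 ± 5.09 TPM), which overlapped in their spread, whereas in 10m xNMJ Mmp2 stood at 1.68 ± 2.10 TPM, far under Adamtsl5 at 13.4 ± 5.84 TPM.

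Summed over each family, MMPs at 10 months reached 19.9 ± 7.03 TPM in xNMJ and 59.6 ± 25.3 in NMJ, and at 30 months 16.1 ± 6.89 and 53.2 ± 15.8 (SD, n = 8). ADAMTS proteases reached 14.0 ± 3.75 and 38.6 ± 7.90 TPM at 10 months and 11.6 ± 5.43 and 35.3 ± 10.5 at 30 months, and TIMPs 32.6 ± 15.1 and 74.2 ± 10.0, then 34.2 ± 11.5 and 79.8 ± 19.1 TPM. Both kinds of protease and the inhibitors therefore had larger mean sums in NMJ at each age. At 30 months the regions overlapped: the highest xNMJ and lowest NMJ sums were 31.8 and 23.2 TPM for MMPs, 23.4 and 19.6 for ADAMTS proteases and 55.1 and 52.9 for TIMPs. Much of the difference in the protease sums lay in single genes. Mean TPM in xNMJ and NMJ were 1.68 and 27.8 at 10 months and 1.34 and 16.8 at 30 months for Mmp2, and 5.76 and 26.1, then 5.26 and 22.3, for Adamts1. The proteases made up a similar part of the joint sum of MMPs, ADAMTS genes and TIMPs in the 4 groups, with means of 52.9%, 55.9%, 45.0% and 52.2% and SDs of 8.35 to 15.1 percentage points. The sums of ADAMTSL genes overlapped between all groups. TPM values carry the difference in composition between the regions that TMM scaling takes out of the fold changes below.

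**Figure D1:**
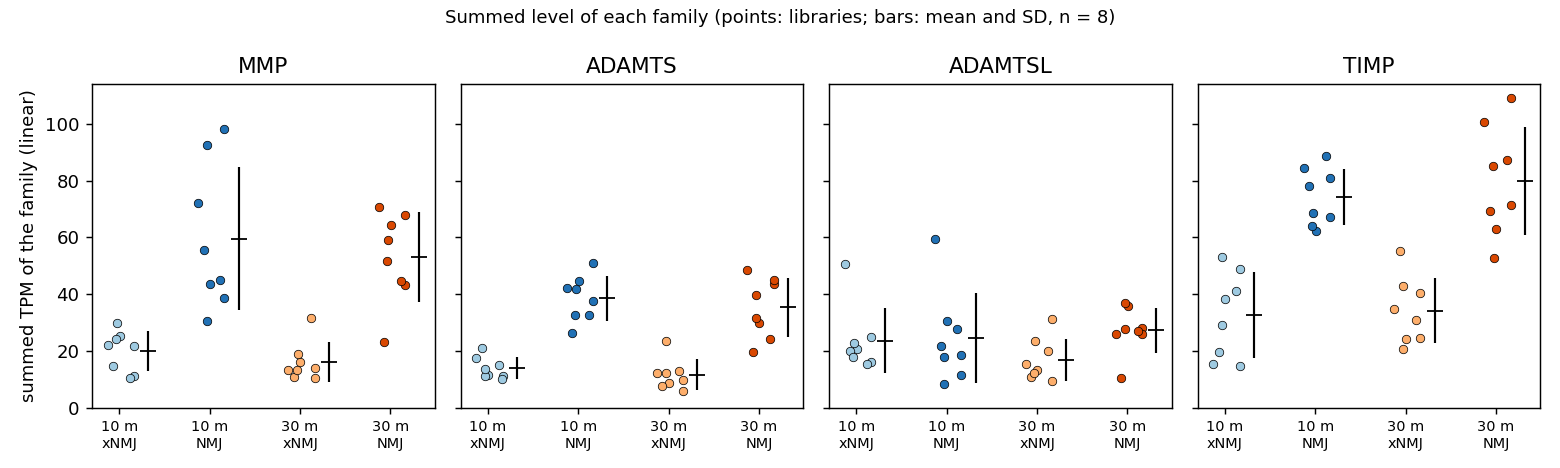
Summed TPM (y axis, linear) of all members of each family in the 32 libraries, by group (x axis). Points are libraries and bars the mean with SD (n = 8). MMP sums have a mean of 59.6 TPM in 10m NMJ and 19.9 TPM in 10m xNMJ, while ADAMTSL sums overlap between all groups.

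To ask which members differ between synaptic and extra-synaptic areas, the regions were compared at each age in a single edgeR fit, with p values adjusted over all genes. At 10 months, 6 of 33 tested members (18.2%) were higher in NMJ and 1 (3.03%) was lower, where 6.5% of all 13990 tested genes were higher and 5.05% lower. At 30 months, 8 (24.2%) were higher and 1 (3.03%) lower, where 5% of all genes were higher and 4.25% lower. The median log2 fold change of the tested members was 0.38 at 10 months and 0.79 at 30 months, beside 0.00 and -0.01 over all genes. Members at or under the floor in all xNMJ libraries stayed above these medians when set to their lower bounds, so the medians could not change. Adamts1, Mmp2, Timp2 and Adamtsl2 were higher at both ages, Mmp19 and Timp3 passed the threshold at 10 months and Mmp8, Mmp14, Adamts12 and Adamtsl1 at 30 months, while the lower members were Adamtsl5 at 10 months and Timp4 at 30 months. The groups did not overlap for 2 members at 10 months and for 3 at 30 months, all higher in NMJ, where this held for 2.22% and 1.96% of all tested genes, and for 0 members lower in NMJ, where it held for 1.19% and 0.5%. The 2 lower calls were lost when library totals took the place of TMM factors. With that scaling the median of all genes moved to 0.56 at 10 months and 0.61 at 30 months, the calls over all genes went from 909 higher and 706 lower to 2659 and 210 at 10 months and from 700 and 595 to 2687 and 76 at 30 months, and 10 and 14 members were higher with 0 lower. Without replicate 5 of 30m xNMJ, 10 members were higher and 0 lower at 30 months, and without replicate 8 of 10m NMJ 7 were higher and 0 lower at 10 months. Timp1 was among the members gained without replicate 5 of 30m xNMJ, and not every member gained in these fits is named.

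**Figure D2:**
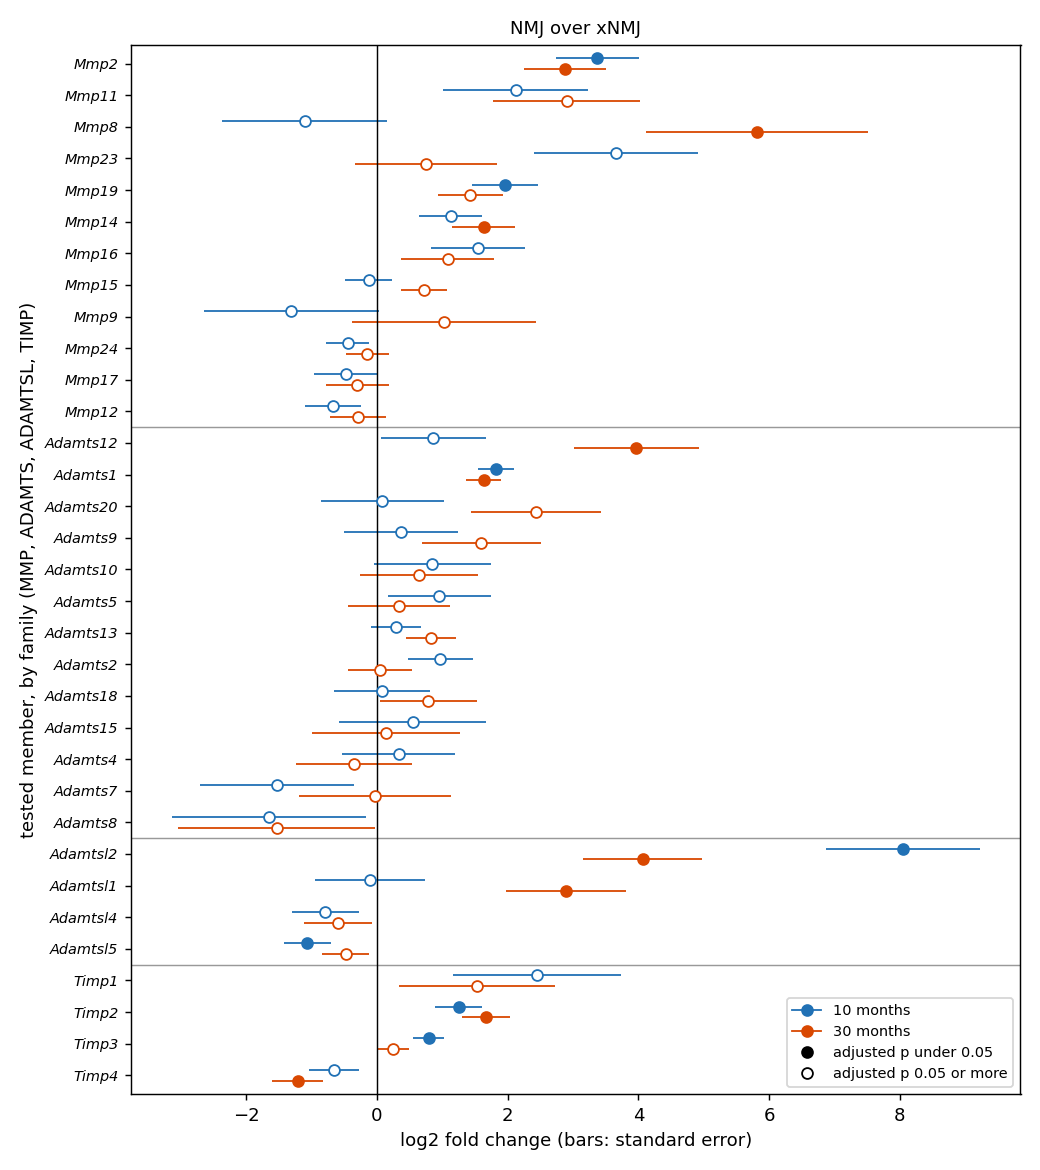
Log2 fold change of NMJ over xNMJ (x axis, bars are standard errors) for the 33 tested members, grouped by family (y axis), at 10 months (blue) and 30 months (orange). Filled points have an adjusted p under 0.05. Adamtsl2 lies farthest to the right at 10 months (8.05), where its xNMJ libraries are at or under the floor, and Timp4 is the filled point on the left at 30 months (-1.21).

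Among the gelatinases, Mmp2 (gelatinase A, chr8:92827291-92853420 in GRCm38), which cuts denatured collagen and type IV collagen of basement membranes, had the highest TPM of the MMPs in the mean over the 4 groups, though not in xNMJ alone, where Mmp12, Mmp14, Mmp15 and Mmp24 had higher means at both ages. Its lowest, median and highest normalized CPM were 0.262, 2.78 and 20.1 in 10m xNMJ, 19.9, 52.2 and 93.5 in 10m NMJ, 0.509, 2.18 and 13.9 in 30m xNMJ and 14.0, 26.7 and 58.0 in 30m NMJ. At 10 months the groups touched only through replicate 2 of xNMJ, and at 30 months they did not overlap. Mmp2 was higher in NMJ by 3.37 on the log2 scale at 10 months (SE 0.63, adjusted p = 0.00032) and by 2.88 at 30 months (SE 0.62, adjusted p = 0.0020). The highest xNMJ library at each age, replicate 2, weighed on these values, which were 4.12 at 10 months and 3.46 at 30 months without it. Mmp9 (gelatinase B), known from neutrophils and macrophages, was above the floor in 3 xNMJ and 4 NMJ libraries at 10 months and in 1 and 4 at 30 months. Its medians were between 0 and 0.508 normalized CPM in the 4 groups, and its highest value was 21.5 in replicate 8 of 10m xNMJ. It did not pass the test at either age (-1.31, adjusted p = 0.61, and 1.03, adjusted p = 0.75).

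Of the 6 membrane-type MMPs, 5 were tested, and 1 passed, at 30 months. Mmp14 (MT1-MMP), which activates the Mmp2 precursor at the cell surface in a complex with Timp2, ranged from 1.42 to 11.8 normalized CPM in 10m xNMJ (median 4.99) and from 1.53 to 27.9 in 10m NMJ (median 11.8). At 30 months it ranged from 1.53 to 13.7 in xNMJ (median 4.24) and from 12.2 to 23.0 in NMJ (median 15.9), where only replicate 7 of xNMJ, with 13.7, reached into the NMJ values. The difference was 1.13 at 10 months (SE 0.47, adjusted p = 0.13) and 1.63 at 30 months (SE 0.48, adjusted p = 0.025). The second call was lost without replicate 2 or replicate 4 of 30m xNMJ (both adjusted p = 0.052). Mmp15 (MT2-MMP) and Mmp24 (MT5-MMP, known from the nervous system) were present in all libraries and did not pass the test at either age, with differences between -0.44 and 0.72, nor did Mmp16 and Mmp17. Mmp25 was under the filter.

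Of the remaining MMPs, Mmp19, which cuts basement membrane proteins such as laminin and nidogen, was higher in NMJ at 10 months. Its lowest, median and highest normalized CPM were 0.735, 1.34 and 2.23 in 10m xNMJ and 1.53, 3.83 and 13.1 in 10m NMJ, and the groups overlapped. The difference was 1.96 at 10 months (SE 0.51, adjusted p = 0.0075) and 1.43 at 30 months (SE 0.49, adjusted p = 0.065), when the values were 0.376, 2.55 and 4.37 in xNMJ and 1.88, 5.71 and 16.5 in NMJ. Mmp19 shares 22.3% of its exon bases with Tmem198b on the other strand, whose medians in xNMJ and NMJ were 1.14 and 4.80 normalized CPM at 10 months and 2.61 and 6.89 at 30 months. Reads of the 2 genes cannot be told apart there, and the part of Tmem198b in the result was not tested.

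**Figure D3:**
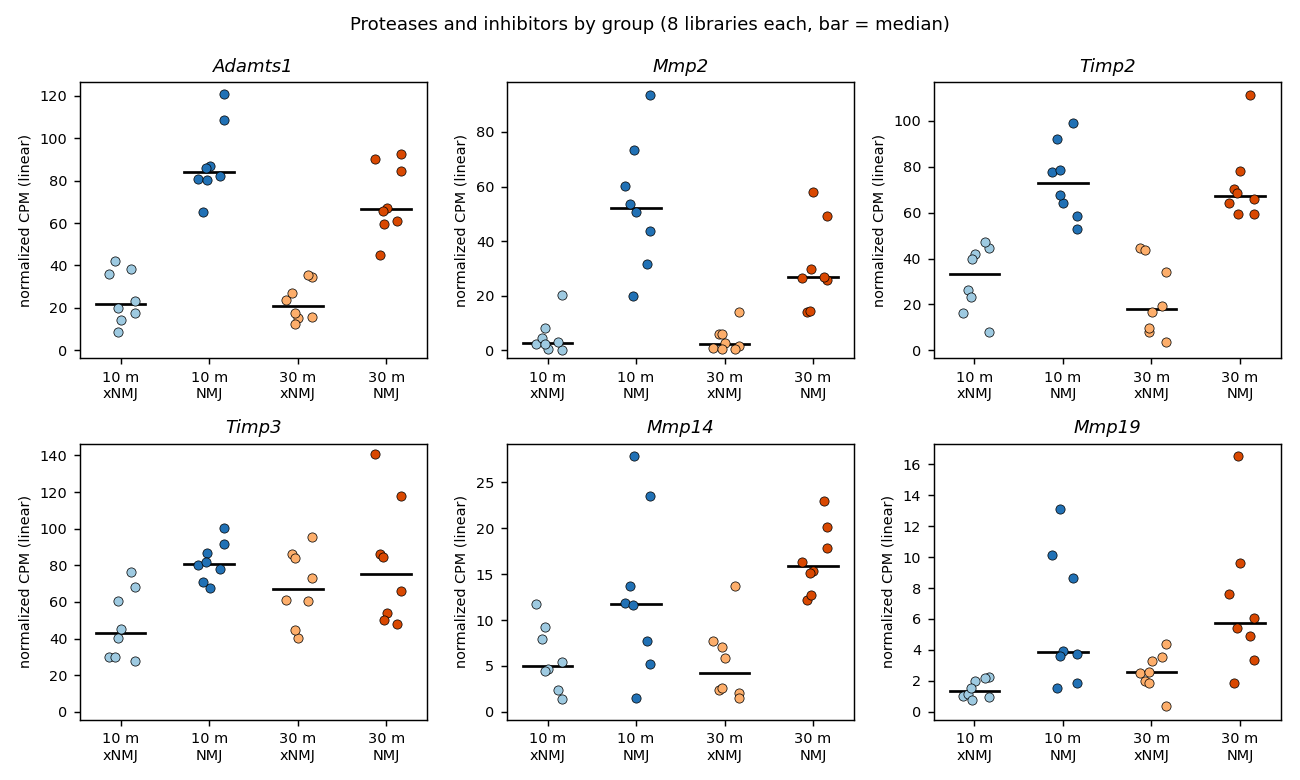
Normalized CPM (y axis, linear) of Adamts1, Mmp2, Timp2, Timp3, Mmp14 and Mmp19 in each library, by group (x axis). Points are libraries and bars medians (n = 8). Adamts1 and Timp2 do not overlap between regions at either age and Mmp2 does not at 30 months, while Timp3 overlaps at both ages.

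Mmp8, the collagenase of neutrophils, was the only collagenase tested. It was at or under the floor in all 8 libraries of 30m xNMJ, where the largest count was 2, and above it in 7 of 8 libraries of 30m NMJ, with a median of 2.30 and a highest value of 15.2 normalized CPM in replicate 6. Mmp8 was called higher at 30 months (adjusted p = 0.023), at least 5.59-fold against a floor of 3 counts in each xNMJ library. Without replicate 6 of 30m NMJ the bound was 2.99-fold and the call was lost (adjusted p = 0.062). The fitted difference was 5.82, and 4.92 without this replicate or 7.98 without replicate 3 of 30m xNMJ, the library with the 2 counts. At 10 months the groups overlapped, and replicate 1 of xNMJ held 20.1 normalized CPM while the next highest library held 0.981 (difference -1.10, SE 1.26, adjusted p = 0.66). Of the neutrophil markers, S100a8 was at 6.92 normalized CPM in replicate 1 of 10m xNMJ and at 3.66 in replicate 6 of 30m NMJ, in groups that ranged from 0 to 38.5 and from 3.66 to 24.0. In replicate 1 of 10m xNMJ, Csf3r, the receptor of the granulocyte growth factor, was at 5.60 in a group of 1.47 to 6.86, and S100a9, Cd14 and Retnlg were at 0. In replicate 6 of 30m NMJ, S100a9 was at 2.60, Csf3r at 0.651, Cd14 at 0.488 and Retnlg at 0. The part of neutrophils in the Mmp8 values was not tested. Mmp12 (macrophage elastase) was found in all 32 libraries and did not pass the test (-0.68, adjusted p = 0.37, and -0.28, adjusted p = 0.77), with medians in xNMJ and NMJ of 10.7 and 6.38 normalized CPM at 10 months and 13.3 and 12.8 at 30 months. Mmp11 (stromelysin-3) and Mmp23 did not pass either. Mmp23 was at or under the floor in all 10m xNMJ libraries and above it in 7 of 8 of 10m NMJ, at least 4.17-fold higher (adjusted p = 0.052), or 2.64-fold without replicate 2 of 10m NMJ.

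All 7 ADAMTS proteoglycanases, which cut aggrecan and versican, were tested, and Adamts1 alone passed. Adamts1 (chr16:85793827-85803113 in GRCm38) had the highest TPM of the proteases in the mean over the 4 groups. Its lowest, median and highest normalized CPM were 8.49, 21.6 and 42.3 in 10m xNMJ, 65.2, 84.1 and 121 in 10m NMJ, 12.3, 20.8 and 35.4 in 30m xNMJ and 44.8, 66.5 and 92.5 in 30m NMJ. Every NMJ library was above every xNMJ library at both ages. The difference was 1.82 at 10 months (SE 0.27, adjusted p = 1.0e-05) and 1.64 at 30 months (SE 0.27, adjusted p = 7.1e-05), and both calls held in all 9 alternatives and in the 32 fits that each left out 1 library. Adamts4, Adamts5, Adamts8, Adamts9, Adamts15 and Adamts20 did not pass at either age, with differences between -1.65 and 2.43. Adamts5 (aggrecanase-2) had medians in xNMJ and NMJ of 3.08 and 14.9 normalized CPM at 10 months and 5.45 and 9.41 at 30 months, with ranges as wide as 0 to 21.7 in 10m xNMJ (difference 0.96, SE 0.79, adjusted p = 0.52 at 10 months).

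Adamts12, which like Adamts7 degrades cartilage oligomeric matrix protein, was above the floor at 10 months in 5 of 8 xNMJ libraries (0 to 6.40 normalized CPM) and in all 8 NMJ libraries (3.14 to 6.02). At 30 months it was above the floor in 0 of 8 xNMJ libraries (0 to 0.617) and in 7 of 8 NMJ libraries (0.219 to 13.9). The xNMJ and NMJ values overlapped at both ages. Adamts12 was called higher in NMJ at 30 months (adjusted p = 0.0047), at least 6.54-fold against the floor (4.38-fold without replicate 5 of 30m NMJ), and not at 10 months (0.87, SE 0.80, adjusted p = 0.57). The fitted difference at 30 months was 3.97 and fell to 3.38 without replicate 5 of 30m NMJ, the library with the highest value. Adamts13, which cuts von Willebrand factor, and Adamts2, a procollagen N-proteinase, were present in all or nearly all libraries and did not pass the test (0.30 and 0.83 for Adamts13 and 0.97 and 0.05 for Adamts2). Adamts7, Adamts10 and Adamts18 did not pass either.

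Of the 4 tested ADAMTSL genes, 1 was called higher in NMJ and 1 lower at 10 months. At 30 months 2 were called higher and 0 lower. Adamtsl2 (chr2:27079379-27108981 in GRCm38), whose product binds fibrillin-1 and restrains TGF-β, was at or under the floor in all 8 libraries of 10m xNMJ, with 1 as the largest count, and ranged from 0.162 to 54.9 normalized CPM in 10m NMJ with a median of 11.6. In 30m xNMJ replicate 5 alone was above the floor, with 1.69, and 30m NMJ ranged from 0.228 to 13.2 with a median of 7.28. The groups overlapped through replicate 8 of 10m NMJ and through replicates 2 and 5 of 30m NMJ, which had low values. Adamtsl2 met the filter of 1 CPM in 8 libraries through NMJ, since no xNMJ library but replicate 5 of 30m xNMJ could reach 1 CPM. Its calls are therefore not independent of the filter. Adamtsl2 was at least 25.8-fold higher in NMJ at 10 months (adjusted p = 9.2e-06; 17.2-fold without replicate 3 of 10m NMJ) and higher by 4.07 on the log2 scale at 30 months (SE 0.91, adjusted p = 0.0028), or 5.77 without replicate 5 of 30m xNMJ. Leaving out replicate 3 of 10m xNMJ or replicate 3 of 10m NMJ moved the fitted difference at 10 months, 8.05, to 8.70 and 7.46. Adamtsl1 (punctin-1) was higher in NMJ at 30 months (2.89, SE 0.92, adjusted p = 0.040), with a median of 7.76 against 0.237 normalized CPM, and not at 10 months (-0.10, SE 0.84, adjusted p = 0.97), when replicate 3 of xNMJ held 28.3. Without that replicate the difference at 10 months was 1.897 (SE 0.79, adjusted p = 0.13). Its call was lost without any of replicates 1, 2, 4, 6 and 7 of 30m xNMJ or 2, 3, 6, 7 and 8 of 30m NMJ, with adjusted p values up to 0.074.

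Adamtsl5, which binds fibrillins, was the member lower in NMJ at 10 months, from a median of 40.3 (19.4 to 73.2) normalized CPM in xNMJ to 21.5 (10.7 to 27.0) in NMJ. The groups overlapped, and the difference was -1.06 (SE 0.36, adjusted p = 0.048), but -0.50 (adjusted p = 0.33) with library totals, where the median of all genes was 0.56. This call was lost in 6 of 9 alternatives and in 19 of 32 fits that each left out 1 library. At 30 months the medians were 22.5 and 23.7 (-0.48, SE 0.35, adjusted p = 0.49, and 0.18 with library totals). Adamtsl4, which binds fibrillin-1 in the zonules of the eye, did not pass the test (-0.79 and -0.59), and its medians in xNMJ and NMJ were 6.42 and 4.09 normalized CPM at 10 months and 4.80 and 4.39 at 30 months.

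**Figure D4:**
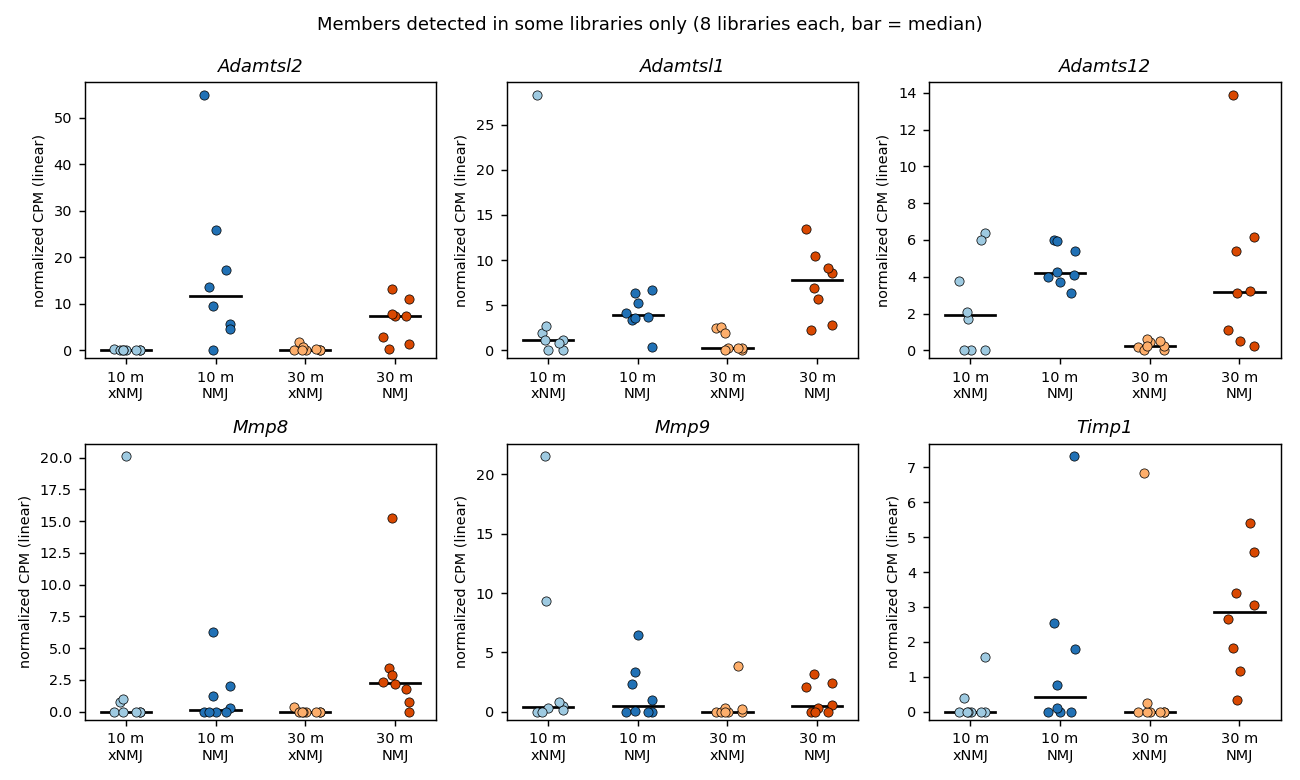
Normalized CPM (y axis, linear) of Adamtsl2, Adamtsl1, Adamts12, Mmp8, Mmp9 and Timp1 in each library, by group (x axis). Points are libraries and bars medians (n = 8). Single libraries stand far above their group, such as 20.1 for Mmp8 in 10m xNMJ and 6.84 for Timp1 in 30m xNMJ, while Adamtsl2 is near 0 in both xNMJ groups.

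Timp2 (chr11:118301069-118355740 in GRCm38), which inhibits MMPs and also takes part in the activation of Mmp2, had the highest TPM of all members in the mean over the 4 groups and was higher in NMJ at both ages. In xNMJ alone the mean TPM of Adamtsl5 was higher at 10 months and that of Timp3 at 30 months (13.4 against 13.1 for Timp2, and 14.6 against 9.91). Its lowest, median and highest normalized CPM were 7.82, 33.1 and 47.2 in 10m xNMJ, 52.9, 72.8 and 99.3 in 10m NMJ, 3.58, 18.05 and 44.8 in 30m xNMJ and 59.3, 67.3 and 111 in 30m NMJ. Every NMJ library was above every xNMJ library at both ages. The difference was 1.25 at 10 months (SE 0.36, adjusted p = 0.017) and 1.67 at 30 months (SE 0.36, adjusted p = 0.0020). With insert size as a covariate the difference at 10 months was 1.13 (adjusted p = 0.053).

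Timp3, the inhibitor that binds to the matrix and also blocks ADAMTS proteases, was higher in NMJ at 10 months. Its lowest, median and highest normalized CPM were 27.5, 43.0 and 76.5 in 10m xNMJ and 67.7, 80.9 and 100.2 in 10m NMJ, with an overlap of the highest xNMJ libraries. The difference was 0.79 at 10 months (SE 0.24, adjusted p = 0.025) and 0.25 at 30 months (SE 0.24, adjusted p = 0.62), when the medians were 67.0 and 75.3. With library totals, where the median of all genes also moved up, Timp3 was called at 30 months (0.87, adjusted p = 0.018). Limma called it on log2(TPM + 1) (0.83, adjusted p = 0.012) and on log2(TPM + 0.1) (0.87, adjusted p = 0.013). The call at 10 months was lost without replicate 2, 3 or 5 of 10m xNMJ (0.71 to 0.72, adjusted p = 0.056 to 0.058) and with insert size as a covariate (0.69, adjusted p = 0.081). Timp3 lies inside Syn3 on the other strand and shares 21.3% of its exon bases with it, and Syn3, which encodes synapsin III of nerve terminals, had medians in xNMJ and NMJ of 49.8 and 73.3 normalized CPM at 10 months and 64.1 and 61.0 at 30 months. Reads of the 2 genes cannot be told apart there, and the part of Syn3 in the result was not tested.

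Timp4 is the inhibitor known from heart and skeletal muscle. Its medians were 33.5 normalized CPM in 10m xNMJ (15.3 to 93.2) and 28.8 in 10m NMJ (10.4 to 54.0), and 49.4 in 30m xNMJ (11.0 to 65.4) and 21.1 in 30m NMJ (8.43 to 28.1), so that the groups overlapped at both ages. The difference was -0.65 at 10 months (SE 0.38, adjusted p = 0.33) and -1.21 at 30 months (SE 0.39, adjusted p = 0.043), but -0.60 (adjusted p = 0.29) at 30 months with library totals, where the median of all genes was 0.61. On the log2(TPM + 1) scale the differences were 0.057 and -0.46, neither called. The call at 30 months was also lost in each of 10 fits that left out 1 library of 30m xNMJ (replicate 1, 2, 4, 5 or 8) or 30m NMJ (replicate 1, 2, 3, 6 or 8), with adjusted p values between 0.054 and 0.089. Timp1, an inhibitor that rises in injured tissue, was above the floor in 1 xNMJ and 4 NMJ libraries at 10 months and in 1 xNMJ and all 8 NMJ libraries at 30 months. The library of 30m xNMJ was replicate 5, with 6.84 normalized CPM, above all 8 values of 30m NMJ (0.326 to 5.42). The difference at 30 months was 1.53 (SE 1.19, adjusted p = 0.52) with this library and 5.90 (adjusted p = 0.0062) without it, and at 10 months it was 2.46 (SE 1.29, adjusted p = 0.26). The value at 10 months was 4.43 (adjusted p = 0.058) without replicate 4 of 10m xNMJ, its 1 library above the floor, and 1.39 (adjusted p = 0.59) without replicate 4 of 10m NMJ.

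The promoters of Adamtsl2, Timp2 and Adamts1 are printed because these genes were called higher in NMJ at both ages and had a RefSeq entry. The 120 bases before each RefSeq start (GRCm38.p6; for Timp2 a start inside the GENCODE span given above) lie at chr2:27079259-27079378 on the plus strand, chr11:118355412-118355531 on the minus strand and chr16:85803114-85803233 on the minus strand. They carry no capitals, since neither TGANTCA nor the letters CCGGAA of the N-box, searched on both strands, was found in them.
Adamtsl2: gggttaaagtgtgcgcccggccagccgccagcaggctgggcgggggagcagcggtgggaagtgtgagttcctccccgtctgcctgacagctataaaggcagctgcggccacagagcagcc
Timp2: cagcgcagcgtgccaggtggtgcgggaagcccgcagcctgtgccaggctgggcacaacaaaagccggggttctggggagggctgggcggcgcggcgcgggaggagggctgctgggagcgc
Adamts1: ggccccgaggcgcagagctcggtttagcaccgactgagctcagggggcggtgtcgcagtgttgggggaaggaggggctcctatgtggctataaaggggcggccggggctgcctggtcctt
The N-box is the binding site of ETS factors known from genes of synaptic nuclei, and CCGGAA was present in 14.9% of all RefSeq promoters. Of the 10 members called higher in NMJ at an age, 7 matched a RefSeq promoter and 0 of them held either motif in the 300 bases. Over all members, 36 of 50 matched with 39 promoters, and Adamts14 was the only member with the N-box letters.

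The other genes of the pathway were followed in lists of related proteases, activators, inhibitors, uptake receptors and substrates. Of 19 tested matrix substrates, 11 were higher in NMJ at 10 months and 8 at 30 months, and 0 were lower. Of these 8, fibrillin-1 (Fbn1) was called with all libraries (1.84, adjusted p = 0.036) and missed the threshold without replicate 5 of 30m xNMJ (1.82, adjusted p = 0.051). Decorin (Dcn), a proteoglycan that binds collagen fibrils, rose from a median of 99.8 to 967 normalized CPM at 10 months and from 131 to 866 at 30 months (2.88 and 2.78, SE 0.28). Lama2, the laminin chain of the muscle basal lamina, rose from 6.72 to 67.6 and from 9.57 to 56.2 (3.20 and 2.19, SE 0.45 and 0.43), and Col4a2, a chain of type IV collagen, from 17.9 to 59.0 and from 12.4 to 37.1 (1.58 and 1.26, SE 0.36). The median log2 fold change of the tested substrates was 1.28 at 10 months and 1.16 at 30 months, beside 0.00 and -0.01 over all genes.

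Of 8 receptors that take up proteases, inhibitors or matrix fragments, Lrp1, Cd44, Mrc1 and Sdc4 were higher in NMJ at both ages. Lrp1, which clears Mmp2, Mmp9 and Timp complexes from the cell surface, had medians of 8.71 and 26.2 normalized CPM at 10 months and of 9.29 and 29.9 at 30 months (1.51, SE 0.41, adjusted p = 0.010, and 1.75, SE 0.41, adjusted p = 0.0039). Of 8 other inhibitors, Cst3 (cystatin C) and Serping1 (C1 inhibitor) were higher at both ages. Of 12 activators, Ctss and Pcsk6 were higher and Bsg, Ctsb and Plau lower at 10 months, and Ctsk was higher and Bsg, Ctsl and Plau lower at 30 months. Plau, the urokinase that turns plasminogen into plasmin, fell by 1.98 at 10 months (SE 0.47, adjusted p = 0.0034), from a median of 3709 to one of 959 normalized CPM, and by 1.89 at 30 months (SE 0.46, adjusted p = 0.0058). With library totals, where the median of all genes was 0.56 and 0.61, these differences were -1.41 (adjusted p = 0.023) and -1.20 (adjusted p = 0.052). The other lower calls among the activators were also lost with library totals, at -0.40 and -0.12 for Bsg at 10 and 30 months and -0.14 for both Ctsb and Ctsl. The call of Ctsl (-0.75, adjusted p = 0.045) was lost as well without replicate 5 of 30m xNMJ (-0.71, adjusted p = 0.070). Of 13 related metalloproteinases, Adam19, Adam23 and Bmp1 were higher at 10 months and Adam23 at 30 months. The list medians at 10 and 30 months were 0.96 and 1.61 for the receptors, 1.14 and 1.21 for the inhibitors, -0.11 and -0.31 for the activators and -0.02 at both ages for the metalloproteinases. None of these genes was called with age in either region.

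Markers of several cell types differed between the regions in the same direction as these genes. All 7 Schwann cell markers were higher in NMJ at both ages, with median log2 fold changes of 5.58 at 10 months and 4.94 at 30 months. One of them, the transcription factor Sox10, had at most 1.98 normalized CPM in 10m xNMJ and 0.875 in 30m xNMJ and medians of 11.6 in 10m NMJ and 12.4 in 30m NMJ, without overlap. Among fibroblast markers Lum and Pdgfra of 7 were higher at both ages, and the sum ranged at 10 months from 19.0 to 123 in xNMJ and from 157 to 315 in NMJ, and at 30 months from 30.9 to 147 and from 128 to 280. Ly6a, the most abundant of them over all libraries, was not called, with means in xNMJ and NMJ of 44.95 and 56.7 normalized CPM at 10 months and 57.6 and 73.0 at 30 months, while those of Lum were 10.4 and 99.2, and 6.49 and 98.3. Among macrophage markers 4 of 7 were higher at each age, and the sum ranged from 2.61 to 54.4, 190 to 568, 8.27 to 122 and 136 to 552 in the same order. Lyz2, the most abundant over all libraries, had means of 3.67, 189.5, 22.003 and 202. Replicate 5 had the highest sum of 30m xNMJ for both lists, with Lyz2 at 109, and without it the highest sums were 128 for the fibroblast and 89.2 for the macrophage markers. Fibroblasts and macrophages are known sources of Mmp2, Mmp14, Mmp19, Timp2 and Adamts1, and the part of these cells in the differences was not tested. Mast cell markers were higher for 4 of 6 genes at both ages, with sums of 0.189 to 6.13, 11.4 to 95.8, 0.187 to 6.75 and 7.17 to 132 and with Cma1 at or under the floor in all xNMJ libraries. Neutrophil markers overlapped between regions (medians of the sum of 24.0 and 15.1 at 10 months and 23.2 and 24.9 at 30 months). Of 4 tested genes of this list only Cd14, which is not confined to neutrophils, was called higher, while S100a8, S100a9 and Csf3r were not called. Cd14 was called at 10 months (5.34, adjusted p = 0.0095) and at 30 months (4.12, adjusted p = 0.030), the latter not without replicate 5 of 30m xNMJ (3.86, adjusted p = 0.0505). Replicate 5 also had the highest neutrophil sum of 30m xNMJ, 119 normalized CPM, where the next highest was 92.1. Of 6 genes of muscle fibres, 3 were lower in NMJ at 10 months and 4 at 30 months, and Flt1 of 6 endothelial markers and Mkx of 4 tenocyte markers were lower at both ages. Cdh5, another endothelial marker, was lower at 30 months (-1.29, adjusted p = 0.0094). Of 6 markers of pericytes and smooth muscle, Rgs5 was lower at 30 months (-0.83, adjusted p = 0.034), and Cspg4 was higher at 10 months (1.92, adjusted p = 0.019) and at 30 months (1.79, adjusted p = 0.036), the latter not without replicate 5 of 30m xNMJ (1.61, adjusted p = 0.054). Plin1, the 1 adipocyte marker tested, was lower at both ages (-1.62, adjusted p = 0.016, and -1.63, adjusted p = 0.018). With library totals all of these lower calls but Mkx at 10 months were lost.

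To ask whether the members change with age, 30 months was compared with 10 months in each region, with the same libraries as above. The older mice had also spent 16 months in single cages on the AIN93M diet and the younger ones 2 to 3 months. Age and this time cannot be told apart here. In NMJ, 0 of 33 members passed the test, where 0% of all genes were called, and 0 members had an unadjusted p under 0.05, beside 372 of all genes. DESeq2 also called 0 members. The median log2 fold change of the members was -0.02, beside 0.02 over all genes. The smallest p values belonged to Adamts20, a versicanase of development (1.79, SE 0.94, unadjusted p = 0.067), Adamtsl2 (-1.36, SE 0.78, unadjusted p = 0.088, and -0.78 without replicate 3 of 10m NMJ) and Adamts4, aggrecanase-1 (-1.52, SE 0.87, unadjusted p = 0.088), each with an adjusted p of 1.0. Adamts20 ranged from 0 to 2.35 normalized CPM in 10m NMJ and from 0.586 to 10.5 in 30m NMJ, and Adamts4 from 0.108 to 2.88 and from 0.112 to 1.68, so that both overlapped. For Mmp2 the medians were 52.2 and 26.7 (-0.80, SE 0.57), for Adamts1 84.1 and 66.5 (-0.33, SE 0.26) and for Timp2 72.8 and 67.3 (-0.03, SE 0.35), with overlapping values.

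In xNMJ, 0 of 33 members passed the test in edgeR, where 0.0429% of all genes were called, and 6 members had an unadjusted p under 0.05, beside 1322 of all genes. DESeq2 called 1 member, Adamts12 (-3.29, adjusted p = 0.037). Adamts12 was above the floor in 5 of 8 libraries of 10m xNMJ and in 0 of 8 of 30m xNMJ, and in edgeR the difference was -3.23 (SE 0.94, unadjusted p = 0.0016, adjusted p = 0.24). Mmp15, a membrane-type MMP found in all libraries, had medians of 15.2 in 10m xNMJ (9.22 to 31.997) and 5.56 in 30m xNMJ (3.20 to 21.3), which overlapped (-1.17, SE 0.36, unadjusted p = 0.0029, adjusted p = 0.29). Mmp8 was above the floor in 3 libraries of 10m xNMJ and in 0 of 30m xNMJ (-5.38, adjusted p = 0.29), and the difference was -1.98 without replicate 1 of 10m xNMJ, which held most of its counts, and -7.54 without replicate 3 of 30m xNMJ. The other members with an unadjusted p under 0.05 were Adamtsl1 (-2.16, and -0.17 without replicate 3 of 10m xNMJ), Adamtsl2 (2.62, and 0.92 without replicate 5 of 30m xNMJ) and Timp3 (0.52). Of the 33 members, 11 had a difference above 0, and their median was -0.31, beside 0.04 over all genes.

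**Figure D5:**
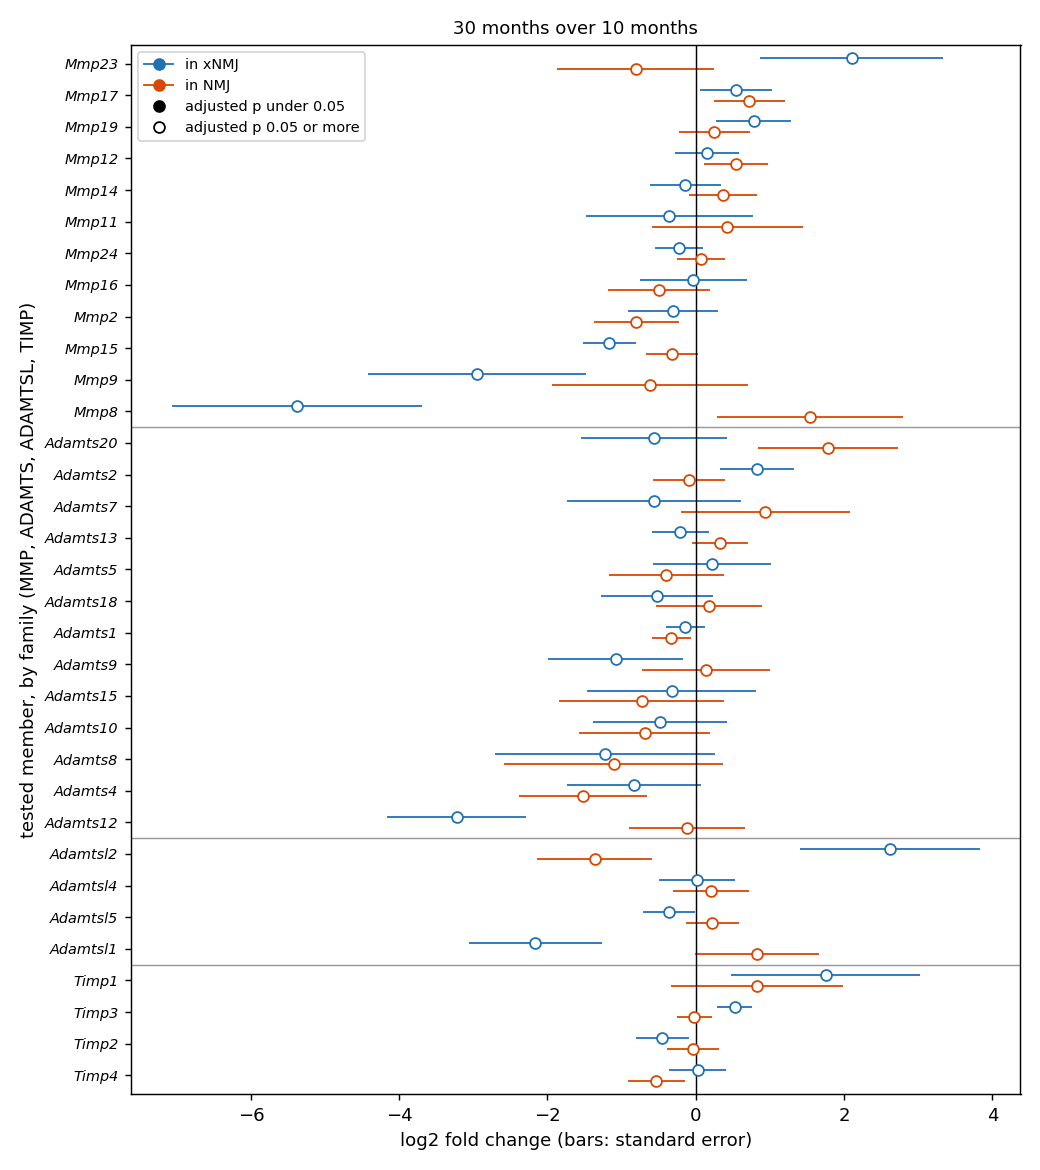
Log2 fold change of 30 over 10 months (x axis, bars are standard errors) for the 33 tested members, grouped by family (y axis), in xNMJ (blue) and NMJ (orange). Open points have an adjusted p of 0.05 or more, which holds for all of them. Mmp8 in xNMJ lies farthest to the left (-5.38, or -1.98 without replicate 1 of 10m xNMJ).

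Whether the difference between regions changed with age was tested as the interaction of both. It passed the threshold for 0 of 33 members, where 0% of all genes were called, and 4 members had an unadjusted p under 0.05, beside 708 of all genes. DESeq2 also called 0 members. The smallest p values were those of Mmp8 (6.92, SE 2.11, unadjusted p = 0.0024, adjusted p = 0.63), Adamtsl2 (-3.98, SE 1.44, adjusted p = 0.80) and Adamts12 (3.10, SE 1.21, adjusted p = 0.84), whose xNMJ libraries were at or near the floor at 1 age or both. The value of Mmp8 was 3.52 without replicate 1 of 10m xNMJ and 9.08 without replicate 3 of 30m xNMJ, and that of Adamtsl2 was -2.28 without replicate 5 of 30m xNMJ. Hence calls at a single age, such as Mmp19 and Timp3 at 10 months or Mmp8, Mmp14, Adamts12 and Adamtsl1 at 30 months, were not shown to differ between the ages.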

How the data were processed

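Single-end reads of SMART-Seq v4 libraries had been trimmed with Cutadapt 1.9.1 and assigned with kallisto 0.43.1 to transcripts of GRCm38 without regard to strand. The authors deposited whole-number counts per gene, in which a read on n transcripts adds 1/n to each, and TPM made from the same assignments. Counts were analyzed here with edgeR 4.0.16 in R 4.3.3: TMM factors, genes kept where 8 or more libraries reached 1 CPM (13990 genes), a quasi-likelihood fit of all 4 groups and two-sided p values adjusted by Benjamini-Hochberg over all tested genes, with a threshold of 0.05. Normalized CPM were divided by TMM-scaled library sizes. A value of 3 counts was taken as the floor, and each library has its own, so deeper libraries are more precise; bounds cover counting error only. TMM factors were 0.686 to 1.02 in xNMJ and 1.12 to 1.35 in NMJ. Gene positions came from GENCODE M21 and promoters from RefSeq. The members and lists were chosen with earlier results of these data known. Members named with full values were those past the threshold in a comparison, the 4 TIMPs, the 10 with the highest mean TPM and the 3 with the smallest p in each comparison. Other members, and genes overlapping them, were named after their values were seen. Alternatives were DESeq2 1.42.0, its size factors, no filter, only the groups compared, a replicate block, insert size as a covariate, limma 3.58.1 on log2 TPM, library totals (chosen after seeing the data) and leaving out each library. The summed level of the Schwann cell markers is not reported here.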

Additional observations from a re-analysis of the deposited data

Results flagged for a closer look

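In 18 members and 4 groups each, the gap between the extreme library and its neighbour was set against the range of the group on the log2 CPM scale, and 8 of 72 groups passed the critical value of Dixon's test for 8 libraries. Chance flags about 1 in 20 groups where values are normally distributed. That rate does not hold for groups with many libraries at 0 counts, such as Mmp8 in 30m xNMJ with 7, and the members were chosen partly by their p values. The number of flags therefore cannot be set against it. High values were those of Mmp8 in replicate 1 of 10m xNMJ (4.26, next 0.20) and in replicate 3 of 30m xNMJ (-0.78, with the others at -2.19, where the count was 2), of Timp1 in replicate 5 of 30m xNMJ (2.74, next -1.18), of Adamtsl4 in replicate 2 of 30m xNMJ (4.73) and replicate 1 of 30m NMJ (3.51), and of Timp2 in replicate 7 of 30m NMJ (6.72). Low values were those of Adamtsl1 in replicate 4 of 10m NMJ (-0.75) and of Mmp19 in replicate 2 of 30m xNMJ (-0.80).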

How the results depend on the processing

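Adamts1, Mmp2 and Adamtsl2 kept their calls at both ages, and Timp2 at 30 months, in every alternative run for them and without any single library. The number of members called between regions moved from 7 to 11 at 10 months with limma on log2(TPM + 0.1), and from 9 at 30 months to 16 with limma on log2(TPM + 1), 16 with log2(TPM + 0.1) and 14 with library totals in place of TMM. In xNMJ with age it moved from 0 to 1 with DESeq2. Leaving out 1 library each gave 5 to 8 calls at 10 months, 6 to 10 at 30 months and 0 in both age comparisons and the interaction. Timp4 at 10 months changed sign to 0.057 with log2(TPM + 1) and 0.066 with log2(TPM + 0.1), scales without TMM. Adamtsl5 at 10 months was no longer called in 6 of 9 alternatives and in 19 of 32 fits without 1 library, and Timp4 at 30 months in 4 of 9 and 10 of 32. No filter kept 0 lower calls at either age. Timp3 was called at 30 months with library totals (0.87) and both TPM scales.

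The labels do not say that equal replicate numbers mark a pair, and libraries of the same number did not deviate together in every pair: deviations from the group means correlated across genes at -0.002 to 0.19 at 10 months (4 of 8 pairs over 0.1) and -0.02 to 0.37 at 30 months (1 of 8), while own numbers correlated best for 4 of 8 at each age, a hint from the data only. With the replicate block 6 members were higher and 0 lower at 10 months, 9 higher and 1 lower at 30 months, and 0 had an interaction. It put Mmp19 at 10 months at 1.67 (adjusted p = 0.064, 1.96 without the block), Adamtsl5 at 10 months at -1.02 (0.054, -1.06 without), Adamts12 at 30 months at 3.25 (0.086, 3.97 without) and Timp1 at 30 months at 4.82 (0.013, 1.53 without). The counts with the block also include members that gained a call and are not named here. The age comparisons could not be fitted with the block, since the block was the replicate number within an age. Depth limits the 17 members under the filter and those with xNMJ values near 3 counts.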
